A study of Mus musculus with 12 samples.

Results

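The Wnt and beta-catenin pathway was followed through 41 of its component genes, from the Wnt ligands at the cell surface to the TCF/LEF transcription factors in the nucleus, in 3T3-L1 cells with and without PRMT1. The genes were chosen by name: a gene of the deposited tables belonged to the set when its symbol equalled that of a component, which gave 41 of the 39423 genes listed. 3T3-L1 cells are mouse preadipocytes kept as a line, and the DMI cocktail (insulin and dexamethasone with 3-isobutyl-1-methylxanthine) drives them to become adipocytes. PRMT1 is an enzyme that places methyl groups on arginine. Cells were transfected with a control siRNA (siCtrl) or with one that targets PRMT1 (siPRMT1) and were collected after 24 h (day 1) or 72 h (day 3) of DMI, with 3 mRNA libraries in each of the 4 groups. All 12 libraries thus come from cells under DMI, and no library of untreated cells was analysed here. The knockdown was transient and made in a single cell line, and the study's text does not say which of its 3 PRMT1 siRNAs was used for sequencing. The labels do not say that replicates came from separate cultures, so the p-values measure the spread between these libraries, which may be technical.

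The first listed strand of each of the 3 siRNAs is shown because the RNA they were designed against, Prmt1, is the only one the experiment set out to lower.
siPRMT1-1: ccauguuucacaaucggcaucucuu
siPRMT1-2: ccauuggaaugaggcccaaugccaa
siPRMT1-3: cagccauugaggaccgacaauauaa
Prmt1 was at 85.9 ± 4.71 FPKM (SD, n = 3) with siCtrl and 41.3 ± 2.61 FPKM with siPRMT1 at day 1, and at 124 ± 15.1 and 67.4 ± 4.92 FPKM at day 3, where FPKM is a count scaled to the gene's exon length and to the library's total. The siPRMT1 libraries were below every siCtrl library at both days.

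Canonical Wnt signaling turns on the amount of beta-catenin, the product of Ctnnb1. Without a Wnt ligand, a destruction complex built on Axin and APC lets the kinases CK1 and GSK3 mark beta-catenin for degradation. A ligand bound to a Frizzled receptor and an LRP co-receptor disables the complex through Dishevelled, and beta-catenin then enters the nucleus and works with TCF/LEF factors. In preadipocytes this branch is known as a brake on adipogenesis. The study asked whether PRMT1 acts on it through Axin, and whether it acts on C/EBP-beta through the ubiquitin ligase Smurf2. Both were examined there as proteins, whereas only mRNA is described here.

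The libraries held 15116462 to 42357137 counts on genes. siCtrl day 1 replicate 3 stood apart. Its counts differed from those of its 2 replicates by a chi-square per gene of 50.6 and 30.8, against 4.14 to 15.8 for the other pairs of replicates. Where a member result is said to depend on it, values with and without that library are given. The no-overlap counts, the medians and the lists of other genes are given only with that library. The 6 preadipocyte markers (Pdgfra, Pdgfrb, Col1a1, Col1a2, Thy1, Dlk1) were all detected, and their summed level was 1040.0 to 1179 FPKM with siCtrl and 988 to 1048 FPKM with siPRMT1 at day 1, and 459 to 502 and 557 to 648 FPKM at day 3. The 7 adipocyte markers (Pparg, Cebpa, Fabp4, Adipoq, Plin1, Lpl, Lep) summed to 144 to 149 FPKM with siCtrl and 109 to 123 FPKM with siPRMT1 at day 1, and to 2068 to 2239 and 1628 to 1843 FPKM at day 3. Of 9 markers of other cell types, Ptprc and Myod1 were at 0 in all 12 libraries and 7 never passed 1 FPKM, and their sum ran from 1.46 to 12.4 FPKM, most of it at day 3 from the keratin gene Krt8. By these sums, siPRMT1 libraries at day 3 held more preadipocyte and less adipocyte marker RNA than siCtrl libraries of the same day, and the part of this shift in the results that follow was not tested. Single markers were not alike. At day 3 Fabp4 overlapped between the siRNAs, at means of 954 FPKM with siCtrl and 874 FPKM with siPRMT1. Pparg, Cebpa and Adipoq did not overlap and were lower with siPRMT1. In bulk RNA, fewer cells of a type and less RNA per cell cannot be told apart.

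The 41 genes spanned a wide range of levels, and their order held a few very abundant components and a group that was barely present. In siCtrl cells at day 1 the most abundant was Ctnnb1 at 227 ± 6.40 FPKM, followed by the co-receptor gene Lrp5, the Wnt carrier gene Wls, the receptor gene Fzd1, the kinase gene Csnk1d and Tcf7l1. Ctnnb1 and Lrp5 kept the top 2 places in all 4 groups by mean FPKM. Among the next, Fzd1 (69.6 to 82.0 FPKM) and Csnk1d (66.8 to 74.3 FPKM) overlapped in siCtrl cells at day 1. At the other end, 10 genes stayed under 1 FPKM in every library: Wnt5b, Wnt10b, Fzd6, Sfrp1, Dkk2, Dkk3, Rnf43, Dvl2, Axin2 and Tcf7. Fzd6 and Rnf43 are listed at 0 in all 12 libraries, but the table holds a second entry of each under a suffixed name, also at 0, and how reads shared between such entries were treated is not stated. Dvl2 has such a copy too, with 87 to 240 counts against 23 to 59 under its own name, so its values are uncertain. Reads on exon bases shared with a neighbouring gene are a further limit for Gsk3a, where 22.4% of exon bases overlap a gene on the opposite strand, and for Rnf43 (11.1%, with a gene on the same strand), Tcf7l2 (6.54%) and Csnk1d (5.41%).

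**Figure D1:**
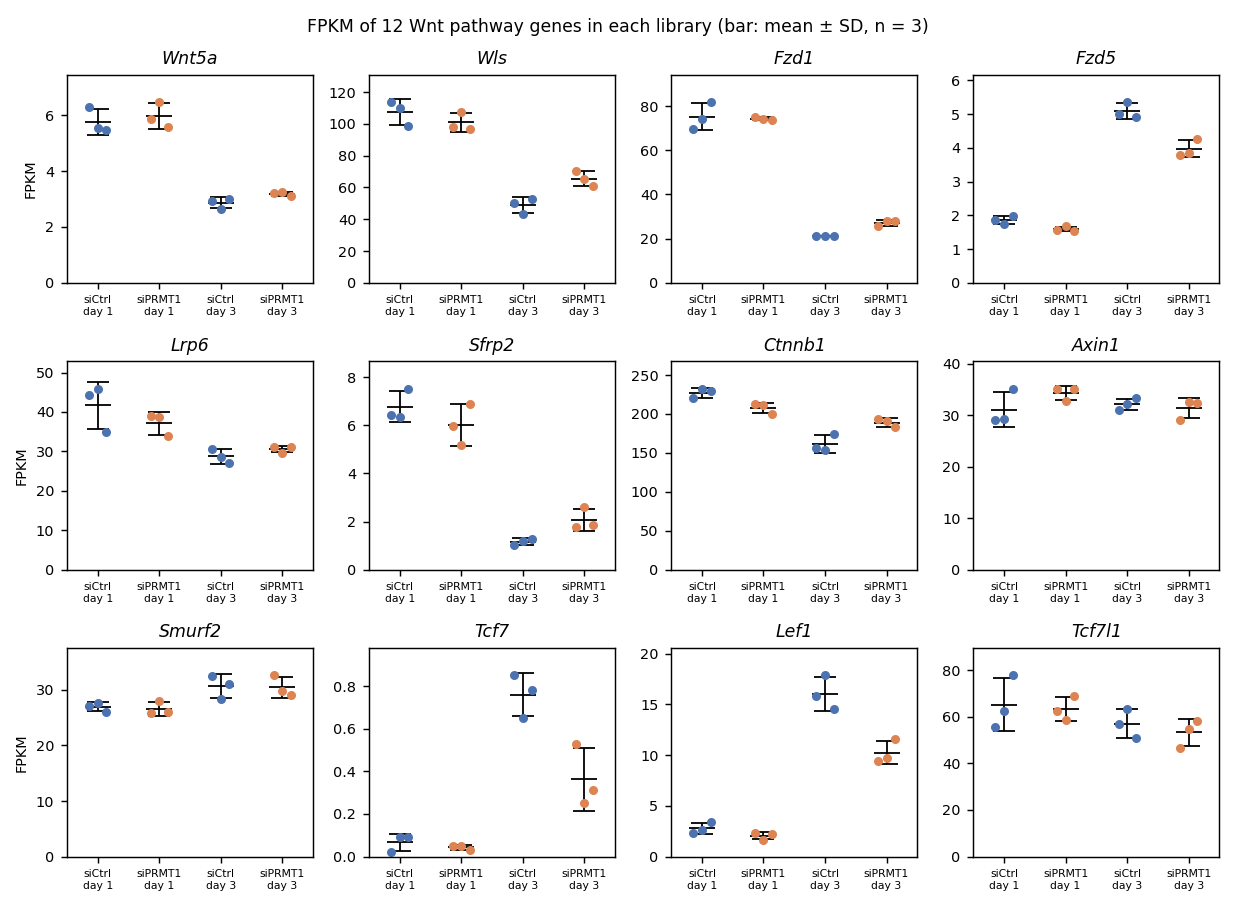
FPKM (y axis, linear, from 0) of 12 pathway genes in each of the 4 groups (x axis), with siCtrl libraries in blue, siPRMT1 libraries in orange, and the black bars at the mean ± SD of 3 libraries. Wnt5a, Wls, Fzd1, Lrp6, Sfrp2 and Ctnnb1 sit lower at day 3 than at day 1, Fzd5, Tcf7 and Lef1 sit higher, and Axin1, Smurf2 and Tcf7l1 overlap between siCtrl and siPRMT1 cells at each day.

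The first question was what PRMT1 knockdown did to the pathway's mRNA. At day 3, siPRMT1 cells held less mRNA of the nuclear factors Lef1 (log2 fold change -0.65) and Tcf7 (-1.12) and more of Sfrp2 (0.83), a secreted protein that binds Wnt ligands. At day 1 no member was called. A gene was called when the adjusted p of edgeR's quasi-likelihood test, corrected over all genes tested, was under 0.05 and the absolute log2 fold change over 0.5. Of the 41 members, 33 passed the filter on low counts at day 1, and 0 of them were called in a comparison where 3.56% of the 13689 genes tested were called (1.95% higher, 1.61% lower). DESeq2 also called 0 members there, where it called 479 of 23906 genes. At day 3, 33 members were tested and 3 were called (1 higher, 2 lower), which is 9.09% of them, beside 6.65% of 14039 genes (2.84% higher, 3.80% lower). The FPKM of the siRNA groups did not overlap at day 1 for 3 members that were higher and 6 that were lower with siPRMT1, beside 19.8% and 11.9% of all genes, and at day 3 for 5 and 4, beside 16.7% and 17.5%. The median log2 fold change of the members was -0.07 at day 1 and -0.03 at day 3, and that of all genes tested was 0.01 at both days.

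By adjusted p alone, with no demand on the size of the change, 8 members differed at day 3, where 16.5% of all genes did (7.54% higher, 8.94% lower): Ctnnb1, Wls, Fzd1 and Sfrp2 were higher, and Fzd5, Smurf1, Tcf7 and Lef1 were lower in siPRMT1 cells. None of the 33 members tested passed by adjusted p alone at day 1, where 7.60% of all genes did (3.22% higher, 4.38% lower). That count rests on siCtrl day 1 replicate 3: without it, 13 members passed by adjusted p alone (4 higher, 9 lower) where 29.6% of all genes did (14.7% higher, 15.0% lower). Still 0 members were called in that fit, where 873 of 13949 genes were. The 4 that were then higher were Axin1, Csnk1e, Dvl1 and Dvl3. The 9 that were lower were Ctnnb1, Wls, Porcn, Lrp6, Fzd4, Fzd7, Csnk1a1, Tnks and Tnks2. The log2 fold changes of these members lay between -0.34 and 0.20. Leaving out siCtrl day 1 replicate 1 gave the only call at day 1 under any left-out library, which was Porcn, lower in siPRMT1 cells.

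**Figure D2:**
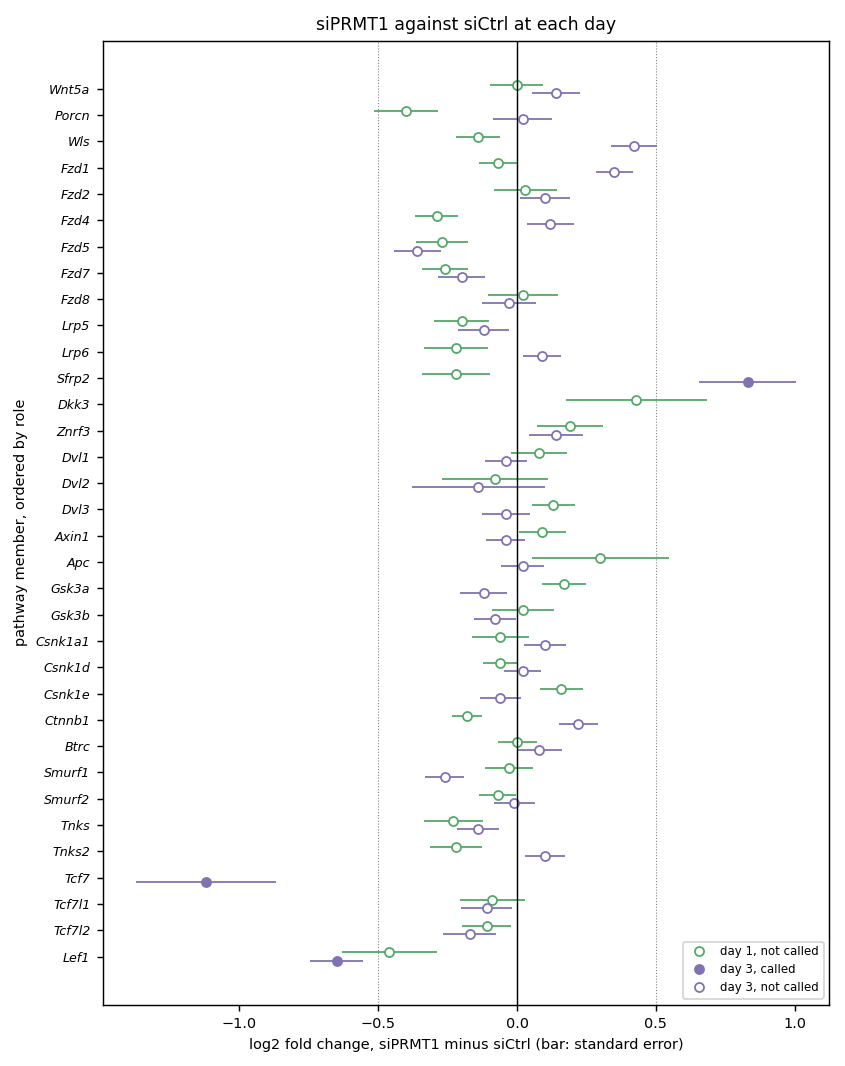
Log2 fold change of siPRMT1 against siCtrl (x axis) of each pathway gene tested (y axis, by role), at day 1 in green and day 3 in purple, with bars for the standard error and dotted lines at 0.5 in both directions. Filled points are called: Sfrp2 at 0.83, Lef1 at -0.65 and Tcf7 at -1.12, all at day 3, and every point of day 1 is open.

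The second question was how the pathway moved over the course of differentiation. From day 1 to day 3 the RNA of most upstream components that changed fell, among them the ligand Wnt5a, Wls, the receptors Fzd1 and Fzd2, the co-receptor Lrp5 and the secreted inhibitors Sfrp2 and Dkk3, whereas Lef1, Tcf7, the receptor Fzd5 and the ubiquitin ligase gene Znrf3 rose. In siCtrl cells 13 of 34 members tested were called (4 higher, 9 lower), which is 38.2%, beside 43.2% of all 13829 genes tested (22.7% higher, 20.4% lower). In siPRMT1 cells 11 of 34 were called (4 higher, 7 lower), or 32.4%, beside 36.5% of 14224 genes (19.0% higher, 17.4% lower). The shares of members called were thus near those of all genes. Dkk3 and Tcf7 passed the filter on low counts only through the day on which they were high, so their calls were built in. With at least 10 counts demanded in every library, which leaves both out, 11 of 32 members were called in siCtrl cells, beside 5050 of 12365 genes. In siPRMT1 cells 9 of 32 were called under that filter, beside 4372 of 12845 genes. By adjusted p alone, 19 members passed in siCtrl cells (6 higher, 13 lower), beside 58.9% of all genes (30.2% higher, 28.7% lower), and 20 in siPRMT1 cells (7 higher, 13 lower), beside 63.4% (32.2% higher, 31.2% lower). Without siCtrl day 1 replicate 3, 11 of 34 members were called in siCtrl cells, beside 6638 of 14175 genes. By adjusted p alone 24 members passed in that fit (10 higher, 14 lower), beside 69.2% of all genes (34.8% higher, 34.4% lower). The FPKM of the days did not overlap for 11 members that were higher and 12 that were lower in siCtrl cells, beside 36.9% and 27.4% of all genes, and for 9 and 14 in siPRMT1 cells, beside 34.4% and 31.8%. The 11 genes called in siPRMT1 cells were also called in siCtrl cells, with the same direction, and the 2 called in siCtrl cells alone were Ctnnb1 and Lrp6. The comparison of siRNAs at a day and the comparison of days within a siRNA group use some of the same libraries, so a library's deviation enters both.

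**Figure D3:**
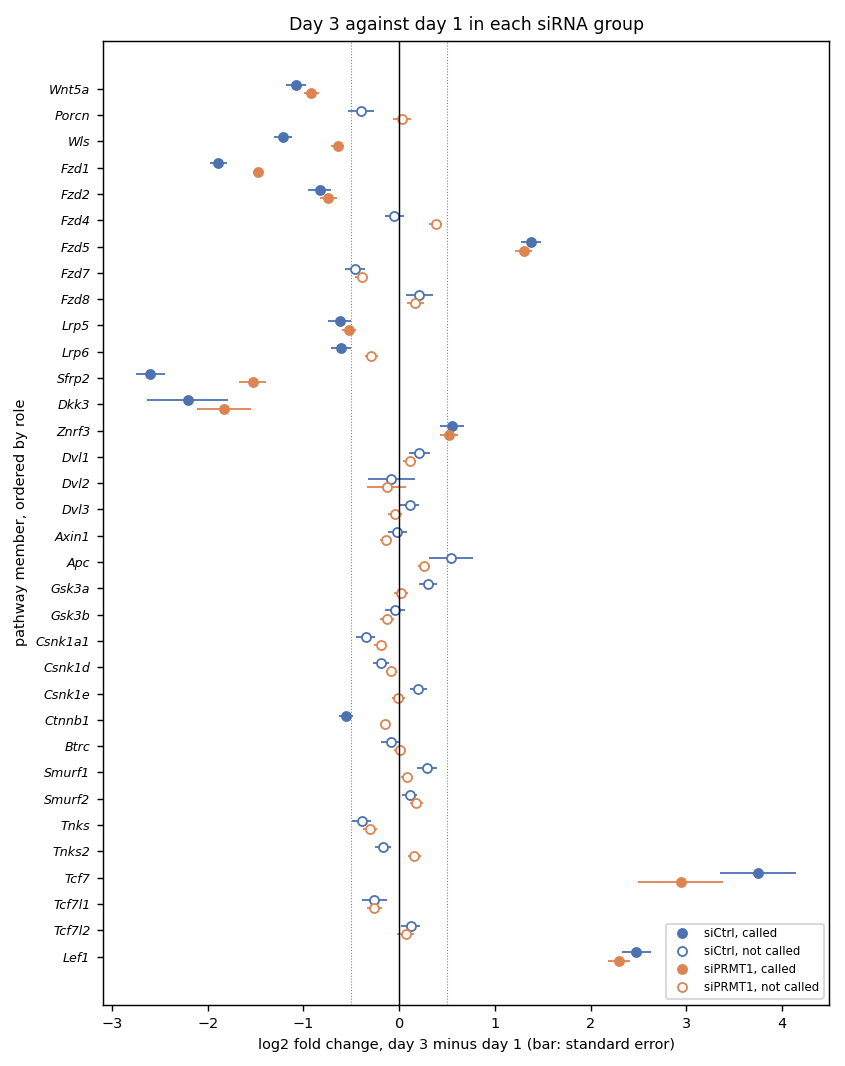
Log2 fold change of day 3 against day 1 (x axis) of each pathway gene tested (y axis, by role), in siCtrl cells in blue and siPRMT1 cells in orange, with bars for the standard error, filled points for calls and dotted lines at 0.5 in both directions. Sfrp2 (-2.60 and -1.53) and Fzd1 (-1.89 and -1.47) fell further in siCtrl than in siPRMT1 cells, and Tcf7 and Lef1 stand far to the right in both groups.

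Whether the knockdown effect differed between the days was tested as the interaction of siRNA and day over all 12 libraries. It was called for 2 of 34 members, Wls (0.58) and Sfrp2 (1.07), or 5.88%, beside 8.24% of 14612 genes (4.77% higher, 3.47% lower). By adjusted p alone 5 members passed, beside 12.3% of all genes (7.69% higher, 4.63% lower): Wls, Sfrp2, Ctnnb1, Fzd1 and Fzd4, all with a positive term. A positive term means that the level in siPRMT1 relative to siCtrl cells was higher at day 3 than at day 1, or, put the other way, that the gene fell less or rose more from day 1 to day 3 with PRMT1 knocked down. All 5 kept an adjusted p under 0.05 without siCtrl day 1 replicate 3, when 10 members passed (7 higher, 3 lower) and 24.9% of all genes did (11.8% higher, 13.2% lower). The others then passing were Lrp6 and Tnks2, with a positive term, and Smurf1, Gsk3a and Csnk1e, with a negative term.

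Among the 3 ligand genes of the set, Wnt5a carried nearly all of the RNA. It encodes a ligand best known for signaling outside the beta-catenin branch, and lies on chromosome 14 of GRCm38 from 28505473 to 28527448. At day 1, Wnt5a was at 6.29, 5.53 and 5.45 FPKM in siCtrl replicates 1 to 3 and at 5.87, 6.48 and 5.56 FPKM in siPRMT1 replicates. By day 3 it was at 2.94, 2.64 and 3.01 FPKM in siCtrl and 3.20, 3.24 and 3.11 FPKM in siPRMT1 cells. The siRNA groups overlapped at day 1, and at day 3 every siPRMT1 library lay above every siCtrl library, but the difference did not pass (log2 fold change 0.14, standard error 0.0864, adjusted p = 0.28, edgeR). Over the days Wnt5a fell by 1.08 on the log2 scale in siCtrl cells (standard error 0.105, adjusted p = 1.3e-05, edgeR) and fell by 0.92 in siPRMT1 cells (0.0788, 2.1e-07). Wnt5b, a close relative, and Wnt10b, a ligand known to hold back adipogenesis, had 1 to 10 counts in every library and were not tested in any comparison.

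Wls encodes the carrier that takes Wnt ligands to the cell surface, and among the members it had the smallest adjusted p of the interaction. It lies on chromosome 3 from 159839695 to 159938670. At day 1, Wls was at 114, 110.1 and 98.4 FPKM in siCtrl and 98.1, 108 and 97.0 FPKM in siPRMT1 cells. On day 3 the gene was at 50.1, 43.2 and 53.0 FPKM in siCtrl and 70.3, 65.2 and 61.1 FPKM in siPRMT1 cells. The groups overlapped at day 1 and did not at day 3, when all siPRMT1 libraries were higher. Wls fell from day 1 to day 3 by 1.21 on the log2 scale in siCtrl cells (standard error 0.0950, adjusted p = 3.1e-06, edgeR) and fell by 0.64 in siPRMT1 cells (0.0686, 2.1e-06). The interaction was 0.58 (standard error 0.119, adjusted p = 0.0060, edgeR) and was called under every alternative, between 0.51 and 0.65. Between the siRNAs, the log2 fold change of Wls was -0.14 at day 1 (standard error 0.0801, adjusted p = 0.32, edgeR) and 0.42 at day 3 (0.0823, 0.0027), under the size needed for a call. Without siCtrl day 1 replicate 3 its day 1 value was -0.21 (standard error 0.0579, adjusted p = 0.017, edgeR), also under that size. Porcn, which encodes the enzyme that attaches a lipid to Wnt ligands, was at 3.65, 4.36 and 4.73 FPKM in siCtrl and 3.28, 3.38 and 3.26 FPKM in siPRMT1 cells at day 1. These groups did not overlap, and the log2 fold change of -0.40 did not pass (standard error 0.116, adjusted p = 0.074, edgeR). At day 3 all libraries of Porcn lay between 3.22 and 3.60 FPKM. Over the days in siCtrl cells Porcn was called lower without siCtrl day 1 replicate 1 or siCtrl day 3 replicate 2, and not with all libraries. Its interaction was called without siCtrl day 1 replicate 1, and not with all libraries.

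The Frizzled receptors, which bind Wnt ligands at the membrane, changed in makeup as well as in amount. Of the 7 receptor genes, 6 were tested in each comparison, and 0 were called between the siRNAs at either day. Fzd1, on chromosome 5 from 4753839 to 4758216, was the leading receptor at day 1, with 69.6, 74.1 and 82.0 FPKM in siCtrl and 74.8, 74.3 and 73.8 FPKM in siPRMT1 cells. Day 3 libraries held it at 21.3, 21.2 and 21.2 FPKM in siCtrl and 25.6, 28.0 and 27.9 FPKM in siPRMT1 cells. The siRNA groups overlapped at day 1, whereas at day 3 every siPRMT1 library was above the narrow range of siCtrl. The log2 fold change of Fzd1 between the siRNAs was 0.35 at day 3 (standard error 0.0670, adjusted p = 0.0025, edgeR), past the adjusted p but under the size for a call. Over the days it fell by 1.89 on the log2 scale in siCtrl (standard error 0.0865, adjusted p = 9.2e-08, edgeR) and fell by 1.47 in siPRMT1 cells (0.0559, 6.0e-11), with an interaction of 0.43 (0.0971, 0.0097).

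Fzd5 moved the other way. At day 1 it was at 1.85, 1.75 and 1.98 FPKM in siCtrl and 1.57, 1.67 and 1.55 FPKM in siPRMT1 cells, and at day 3 at 5.0, 5.37 and 4.92 FPKM in siCtrl and 3.80, 3.86 and 4.26 FPKM in siPRMT1 cells. siPRMT1 libraries lay below all siCtrl libraries at both days. Fzd5 rose by 1.38 on the log2 scale in siCtrl (standard error 0.105, adjusted p = 2.4e-06, edgeR) and by 1.30 in siPRMT1 cells (0.0843, 1.2e-08). Between the siRNAs, its log2 fold change was -0.27 at day 1 (standard error 0.0950, adjusted p = 0.12, edgeR) and -0.36 at day 3 (0.0850, 0.0088). Fzd2 was at 20.9, 20.1 and 26.6 FPKM in siCtrl and 23.5, 21.8 and 26.0 FPKM in siPRMT1 cells at day 1, and at 12.9, 13.5 and 13.5 FPKM in siCtrl and 12.1, 15.5 and 15.3 FPKM in siPRMT1 cells at day 3. Its log2 change over the days was -0.83 in siCtrl (standard error 0.118, adjusted p = 0.00018, edgeR) and -0.74 in siPRMT1 cells (0.0891, 6.4e-06), and the siRNA groups overlapped at each day. Fzd4, for which the log2 change over the days was -0.05 in siCtrl and 0.38 in siPRMT1 cells, had an interaction of 0.43 (standard error 0.111, adjusted p = 0.021, edgeR). Fzd7 and Fzd8 were not called in any comparison with all libraries, with log2 fold changes between -0.46 and 0.21. In siCtrl cells Fzd7 was called lower at day 3 without siCtrl day 1 replicate 2 or siCtrl day 3 replicate 1 or 2.

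Summed over the receptor genes, Frizzled FPKM was 124 ± 11.05 (SD, n = 3) with siCtrl and 121 ± 1.61 with siPRMT1 at day 1, and 62.5 ± 1.31 and 67.9 ± 3.79 at day 3. Fzd1 made up 60.7% ± 1.39 of this sum with siCtrl and 61.2% ± 1.02 with siPRMT1 at day 1. At day 3 its share was 34.1% ± 0.668 in siCtrl and 39.98% ± 0.354 in siPRMT1 cells, and the shares of single libraries, 33.5 to 34.8% against 39.6 to 40.3%, did not overlap. The share of Fzd5 went from 1.503% ± 0.0756 to 8.16% ± 0.286 in siCtrl and from 1.32% ± 0.0707 to 5.85% ± 0.285 in siPRMT1 cells. These shares are a description, and no test was run on them.

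**Figure D4:**
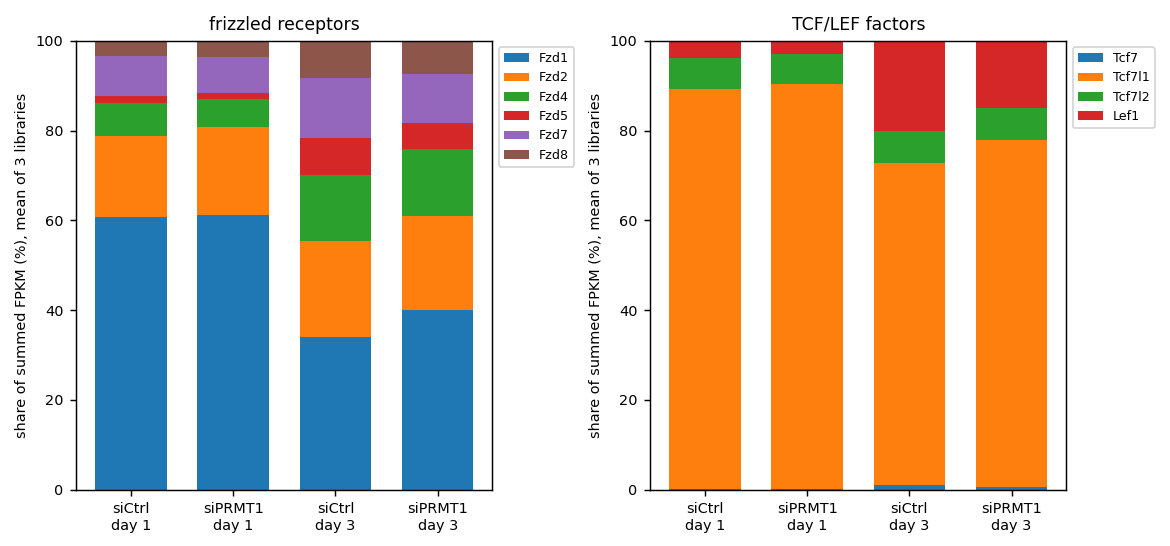
Share of the summed FPKM (y axis, percent, mean of 3 libraries) of each Frizzled receptor gene (left) and each TCF/LEF gene (right) in the 4 groups (x axis). At day 3 Fzd1 takes 34.1% of Frizzled RNA in siCtrl and 39.98% in siPRMT1 cells, and Lef1 takes 20.2% and 14.9% of TCF/LEF RNA.

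The co-receptors Lrp5 and Lrp6, which stand beside Frizzled and pass the signal inward, were abundant and were not called between the siRNAs. Lrp5 was at 148, 160.1 and 200.5 FPKM in siCtrl and 158, 149 and 151 FPKM in siPRMT1 cells at day 1, and at 104, 125 and 119.6 FPKM in siCtrl and 93.2, 112 and 118 FPKM in siPRMT1 cells at day 3. Its highest value came from siCtrl day 1 replicate 3. Lrp5 fell by 0.62 on the log2 scale in siCtrl (standard error 0.121, adjusted p = 0.0016, edgeR) and fell by 0.52 in siPRMT1 cells (0.0735, 3.2e-05). Without siCtrl day 1 replicate 3 the change of Lrp5 in siCtrl cells was -0.48, under the size for a call. In siPRMT1 cells it was -0.49 without siPRMT1 day 1 replicate 1 and -0.43 without siPRMT1 day 3 replicate 1, also under that size. Lrp6 was at 44.4, 45.9 and 34.9 FPKM in siCtrl and 39.0, 38.7 and 33.8 FPKM in siPRMT1 cells at day 1, and at 30.7, 28.6 and 26.9 FPKM in siCtrl and 31.0, 29.6 and 31.1 FPKM in siPRMT1 cells at day 3. It fell by 0.61 in siCtrl cells (standard error 0.105, adjusted p = 0.00065, edgeR). In siPRMT1 cells the log2 change of Lrp6 was -0.29 (standard error 0.0668, adjusted p = 0.0016, edgeR), under the size for a call. With all libraries the difference between the groups did not pass (interaction 0.32, adjusted p = 0.12, edgeR). Without siCtrl day 1 replicate 3, the lowest of its group for Lrp6, the interaction was 0.40 (standard error 0.097, adjusted p = 0.0067, edgeR). It then passed the adjusted p alone.

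Of the 4 secreted inhibitors of the set, only Sfrp2 was present at more than 1 FPKM. Sfrp2 lies on chromosome 3 from 83766158 to 83774314, and in siCtrl cells it fell furthest of the members called. At day 1, it was at 6.45, 6.36 and 7.53 FPKM in siCtrl and 5.99, 5.17 and 6.88 FPKM in siPRMT1 cells. Later, at day 3, it was at 1.03, 1.19 and 1.29 FPKM in siCtrl and 1.77, 2.61 and 1.87 FPKM in siPRMT1 cells. The groups overlapped at day 1, and at day 3 all siPRMT1 libraries lay above all siCtrl libraries. Sfrp2 fell by 2.60 on the log2 scale in siCtrl (standard error 0.150, adjusted p = 3.8e-07, edgeR) and fell by 1.53 in siPRMT1 cells (0.144, 5.5e-07). Its log2 fold change between the siRNAs was -0.22 at day 1 (standard error 0.124, adjusted p = 0.31, edgeR) and 0.83 at day 3 (0.176, 0.0046), and the interaction was 1.07 (0.229, 0.0076). The call at day 3 was lost with limma on log2(FPKM + 1), where the change was 0.50, and the interaction was not called on that scale with no filter on low FPKM. Dkk3, of a family that includes inhibitors of LRP co-receptors, had 20 to 35 counts in the day 1 libraries and 2 to 10 counts in the day 3 libraries. It passed the filter only through day 1, so a fall was built into its test, and it was not tested between the siRNAs at day 3. Dkk3 was at 0.19, 0.29 and 0.27 FPKM in siCtrl and 0.29, 0.31 and 0.41 FPKM in siPRMT1 cells at day 1, and at 0.03, 0.09 and 0.05 FPKM in siCtrl and 0.09, 0.11 and 0.08 FPKM in siPRMT1 cells at day 3. Its log2 change was -2.21 in siCtrl (standard error 0.425, adjusted p = 0.0013, edgeR) and -1.83 in siPRMT1 cells (0.285, 7.2e-05). Sfrp1 and Dkk2 had 0 to 4 counts in any library and were not tested.

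Znrf3, which encodes a ubiquitin ligase that removes Frizzled receptors from the membrane, was at 1.64, 1.54 and 1.26 FPKM in siCtrl and 1.81, 1.73 and 1.73 FPKM in siPRMT1 cells at day 1. At day 3, it was at 2.35, 2.39 and 2.13 FPKM in siCtrl and 2.41, 2.37 and 2.81 FPKM in siPRMT1 cells. It was higher at day 3 in both groups, with no overlap between the days, and the log2 change was 0.55 in siCtrl (standard error 0.127, adjusted p = 0.0039, edgeR) and 0.52 in siPRMT1 cells (0.0903, 0.00020). Both changes lie close to the size needed for a call, and leaving out siCtrl day 1 replicate 3 (0.44), siCtrl day 3 replicate 1 (0.50) or 2 (0.46), or siPRMT1 day 1 (0.49) or day 3 (0.43) replicate 3 took them below it. Between the siRNAs Znrf3 was not called. The Dishevelled genes Dvl1, Dvl2 and Dvl3, whose products link receptor and destruction complex, were not called in any comparison, with log2 fold changes between -0.15 and 0.21.

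In the destruction complex, with no library left out and each pair of groups fitted on its own in edgeR, 0 of the 7 tested were called in any of the 5 comparisons, and by adjusted p alone only Gsk3a, Csnk1a1 and Apc passed, all over the days, with log2 changes between -0.35 and 0.30. Axin1, the scaffold of the complex, lies on chromosome 17 from 26131213 to 26195811. It was at 29.0, 29.3 and 35.1 FPKM in siCtrl and 35.2, 32.7 and 35.1 FPKM in siPRMT1 cells at day 1, and at 31.1, 32.1 and 33.3 FPKM in siCtrl and 29.1, 32.5 and 32.5 FPKM in siPRMT1 cells at day 3. The groups overlapped at both days. The log2 fold change of Axin1 between the siRNAs was 0.09 at day 1 (standard error 0.0844, adjusted p = 0.56, edgeR) and -0.04 at day 3 (0.0702, 0.72). At day 1 this depended on siCtrl replicate 3, the highest of the siCtrl libraries for Axin1: without it the log2 fold change was 0.18 (standard error 0.0557) and passed the adjusted p alone, toward more Axin1 mRNA in siPRMT1 cells. Axin2, a scaffold whose gene is a standard readout of canonical Wnt signaling, was close to absent. It had 0, 1 and 0 counts in siCtrl and 1, 0 and 2 counts in siPRMT1 cells at day 1, and 0 counts in each siCtrl and 2, 1 and 2 counts in the siPRMT1 libraries at day 3. With 0 counts, a level of up to 0.126 to 0.199 CPM (3 counts, scaled to the library's total) is allowed in the siCtrl libraries of day 3, counting error only, so no difference was detectable at this depth. Apc was at 3.65 FPKM in siCtrl day 1 replicate 3 and at 7.95 and 7.34 FPKM in the other two libraries of its group, and its change over the days in siCtrl cells was 0.54 with that library and 0.26 without it. Without siCtrl day 1 replicate 1, Apc was called higher at day 3 in siCtrl cells.

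Ctnnb1, on chromosome 9 from 120933400 to 120960507, was lower at day 3 in both groups and fell less when PRMT1 was knocked down. At day 1, it was at 220.2, 233 and 229 FPKM in siCtrl and 212, 211 and 200.1 FPKM in siPRMT1 cells. At day 3, it was at 156, 154 and 174 FPKM in siCtrl and 194, 190.3 and 183 FPKM in siPRMT1 cells. The siPRMT1 libraries were all lower than any siCtrl library at day 1 and all higher at day 3. The log2 change of Ctnnb1 over the days was -0.56 in siCtrl (standard error 0.0730, adjusted p = 9.8e-05, edgeR), which was called, and -0.15 in siPRMT1 cells (0.0548, 0.029), which was not. Between the siRNAs it was -0.18 at day 1 (standard error 0.0540, adjusted p = 0.083, edgeR) and 0.22 at day 3 (0.0704, 0.044), and the interaction was 0.42 (0.0866, 0.0062). None of the last 3 reached the size for a call. Without siCtrl day 1 replicate 3 the day 1 value of Ctnnb1 was -0.18 (standard error 0.0491, adjusted p = 0.015, edgeR), past the adjusted p alone. The fall in siCtrl cells was not called in 3 fits on FPKM, where it was -0.49 to -0.50. The level of Ctnnb1 mRNA does not measure the beta-catenin protein on which the pathway turns.

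The ubiquitin ligases and tankyrases that act on the complex or its substrates were not called in any comparison. Smurf2, on chromosome 11 from 106820061 to 106920715, was at 27.2, 27.7 and 26.1 FPKM in siCtrl and 25.8, 28.1 and 26.0 FPKM in siPRMT1 cells at day 1. At day 3, it was at 32.5, 28.4 and 31.1 FPKM in siCtrl and 32.6, 29.9 and 29.1 FPKM in siPRMT1 cells. The siRNA groups overlapped at both days, and the log2 fold change was -0.07 at day 1 (standard error 0.0679, adjusted p = 0.58, edgeR) and -0.01 at day 3 (0.0737, 0.92), a value whose sign turned when single libraries were left out. Smurf1, a related ligase, was lower in siPRMT1 cells at day 3 by adjusted p alone (log2 fold change -0.26, standard error 0.0703, adjusted p = 0.020, edgeR). It then stood at 21.6, 23.2 and 23.8 FPKM with siCtrl and at 18.4, 19.8 and 19.5 FPKM with siPRMT1, with no overlap. Btrc, which encodes the adaptor that binds marked beta-catenin, and the tankyrase genes Tnks and Tnks2, whose products mark Axin for removal, had log2 fold changes between -0.23 and 0.10 in the comparisons of siRNAs.

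Of the TCF/LEF factors, which carry beta-catenin to DNA, Lef1 rose several fold over the days in both groups and stayed lower in siPRMT1 cells. It lies on chromosome 3 from 131110263 to 131224357. At day 1, Lef1 was at 2.32, 2.61 and 3.37 FPKM in siCtrl and 2.30, 1.67 and 2.25 FPKM in siPRMT1 cells. At day 3, it was at 15.8, 17.9 and 14.5 FPKM in siCtrl and 9.46, 9.76 and 11.6 FPKM in siPRMT1 cells. The siPRMT1 libraries were all lower than any siCtrl library at both days, with the 2 groups nearly touching at day 1. Lef1 rose by 2.48 on the log2 scale in siCtrl (standard error 0.153, adjusted p = 5.8e-07, edgeR) and by 2.30 in siPRMT1 cells (0.117, 1.0e-09). Its log2 fold change between the siRNAs was -0.46 at day 1 (standard error 0.172, adjusted p = 0.14, edgeR) and -0.65 at day 3 (0.0969, 0.00033), or 0.637 times the siCtrl level. The call at day 3 held under every alternative, between -0.75 and -0.56. The knockdown effect was not shown to differ between the days (interaction -0.17, standard error 0.209, adjusted p = 0.65, edgeR).

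Tcf7, on chromosome 11 from 52252283 to 52283014, was present at a much lower level and was likewise lower in siPRMT1 cells at day 3. It had 2, 5 and 5 counts in siCtrl and 3, 4 and 2 counts in siPRMT1 cells at day 1, which the filter left out, and 47, 27 and 51 counts in siCtrl and 31, 18 and 21 counts in siPRMT1 cells at day 3. At day 3 this was 0.85, 0.65 and 0.78 FPKM with siCtrl and 0.53, 0.25 and 0.31 FPKM with siPRMT1, with no overlap. Its log2 fold change between the siRNAs at day 3 was -1.12 (standard error 0.253, adjusted p = 0.0071, edgeR). On log2(FPKM + 1) with no filter on low FPKM the change of Tcf7 was -0.37 and was not called. Tcf7 passed the filter over the days only through day 3, so that a rise was built into that test, and the log2 change was 3.75 in siCtrl (standard error 0.401, adjusted p = 2.6e-05, edgeR) and 2.94 in siPRMT1 cells (0.446, 5.8e-05). Tcf7l1, known mostly as a repressor of Wnt targets, was the most abundant of the family in all groups, at 50.7 to 77.7 FPKM in siCtrl and 46.6 to 68.8 in siPRMT1 libraries. Tcf7l2 lay between 4.43 and 6.08 FPKM in all libraries, and neither was called in any comparison. Lef1 made up 3.78% ± 0.121 (SD, n = 3) of the FPKM of the 4 genes with siCtrl and 2.95% ± 0.366 with siPRMT1 at day 1, and 20.2% ± 0.242 and 14.9% ± 0.707 at day 3. The share of Tcf7l1 went from 89.3% ± 1.05 to 71.7% ± 0.509 in siCtrl and from 90.2% ± 0.280 to 77.2% ± 1.79 in siPRMT1 cells.

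The promoter windows of Lef1 and Sfrp2, 2 of the 3 genes called at day 3, are shown from the RefSeq promoter table (GRCm38.p6) from 250 bases before to 50 bases after the start, with a TCF/LEF core in capitals where there is one. Of the 4 windows of Lef1, that of the most upstream start and that of an internal start are given, since the counts do not tell its transcripts apart.
Lef1, upstream start, chr3:131110047-131110346, plus strand: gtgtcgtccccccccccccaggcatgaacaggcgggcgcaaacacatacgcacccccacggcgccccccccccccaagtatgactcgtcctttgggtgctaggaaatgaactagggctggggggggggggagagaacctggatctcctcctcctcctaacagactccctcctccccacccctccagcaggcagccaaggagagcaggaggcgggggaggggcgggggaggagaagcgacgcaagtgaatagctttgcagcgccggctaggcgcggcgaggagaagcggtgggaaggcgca
Lef1, internal start, chr3:131156044-131156343, plus strand: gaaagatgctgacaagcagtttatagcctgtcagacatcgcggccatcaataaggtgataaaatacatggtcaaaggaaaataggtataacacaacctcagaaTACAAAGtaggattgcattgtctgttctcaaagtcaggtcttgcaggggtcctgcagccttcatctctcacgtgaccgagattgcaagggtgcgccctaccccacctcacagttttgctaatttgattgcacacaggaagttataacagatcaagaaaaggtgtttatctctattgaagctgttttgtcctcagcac
Sfrp2, chr3:83766071-83766370, plus strand: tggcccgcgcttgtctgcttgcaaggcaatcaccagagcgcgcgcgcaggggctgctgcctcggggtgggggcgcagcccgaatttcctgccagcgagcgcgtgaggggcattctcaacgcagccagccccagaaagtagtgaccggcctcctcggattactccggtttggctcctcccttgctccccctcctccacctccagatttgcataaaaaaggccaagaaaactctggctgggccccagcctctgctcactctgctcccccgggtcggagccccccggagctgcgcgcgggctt
The core searched for was CTTTG followed by AA, AT, TA or TT, on either strand. It was found in the internal window of Lef1 on the minus strand, starting 147 bases before the start (position -147), and not in the upstream window of Lef1, the window of Sfrp2 or the 2 windows of Tcf7, which are not shown. Of the 41 members, 25 had an entry, with 37 windows in all, and 5 of these windows (13.5%) held the core, those of Fzd7, Gsk3a, Lef1, Tcf7l2 and Wnt5b. Among all 32851 windows of the table, 16.9% held it. A match is a stretch of letters and not a measured site.

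Other genes of the pathway, in lists of 125 genes that are not among the 41, were counted in the same way, and the difference from the members was not tested. The 125 include the 29 target genes of the next paragraph, so the shares below are not those of pathway components alone. These lists were chosen with earlier results of these data known. Between the siRNAs, 3 were called higher and 2 lower of 84 tested at day 1 (5.95%, beside 3.56% of all genes), and 4 higher and 4 lower of 88 tested at day 3 (9.09%, beside 6.65%). Of these calls, the target genes made 3 higher and 1 lower at day 1, and 2 higher and 2 lower at day 3. The rest were Prickle1 at day 1 and Lgr6, Ror1, Rspo2 and Sfrp5 at day 3. Over the days, 16 were called higher and 26 lower of 83 in siCtrl cells (50.6%, beside 43.2% of all genes), and 13 higher and 26 lower of 87 in siPRMT1 cells (44.8%, beside 36.5%). The interaction was called higher for 10 and lower for 2 of 90 (13.3%, beside 8.24%). Among ligands outside the set, Wnt4 was more abundant than Wnt5a, at a mean of 28.3 FPKM in siCtrl and 38.7 FPKM in siPRMT1 cells at day 1 and 4.60 and 6.37 FPKM at day 3. It fell by 2.69 on the log2 scale in siCtrl (standard error 0.132, adjusted p = 1.4e-07, edgeR) and fell by 2.61 in siPRMT1 cells (0.0712, 2.2e-12). Lgr4, a receptor for R-spondins, which amplify Wnt signaling, fell from a mean of 74.1 to 33.6 FPKM in siCtrl and from 58.4 to 39.4 FPKM in siPRMT1 cells, with a called interaction of 0.64 (standard error 0.1004, adjusted p = 0.0011, edgeR). Sfrp5, a secreted relative of Sfrp2, went the other way, from a mean of 0.0533 to 1.25 FPKM in siCtrl and from 0.0267 to 0.810 FPKM in siPRMT1 cells, and passed the filter over the days only through day 3.

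A list of 29 genes that canonical Wnt signaling is known to switch on in some cells, none of them a member, was read in the same way. At day 1, 3 of 21 tested were called higher (Gja1, Sox4, Fosl1) and Bambi was called lower. At day 3, 2 of 21 were called higher (Ccnd1, Cyr61) and 2 lower (Fosl1, Nrcam). The share called was 19.0% at each day, beside 3.56% and 6.65% of all genes. The list was chosen with earlier results of these data known, so these shares and the medians below cannot be weighed against those of all genes. They are given with all libraries only. Ccnd1, which encodes cyclin D1, was at a mean of 39.8 FPKM in siCtrl and 59.4 FPKM in siPRMT1 cells at day 3 (log2 fold change 0.57, standard error 0.0727, adjusted p = 7.5e-05, edgeR). At day 1 it was higher by adjusted p alone (0.27, standard error 0.0636, adjusted p = 0.037, edgeR). The study reports less cyclin D1 protein after PRMT1 knockdown during the early cell divisions of adipogenesis. Protein was not measured here. Fosl1, which encodes a partner of Jun in the AP-1 factor, turned direction between the days. Its log2 fold change was 0.82 at day 1 (standard error 0.169, adjusted p = 0.026, edgeR) and -1.34 at day 3 (0.135, 1.3e-05), with an interaction of -2.14 (0.251, 9.2e-05). Over the days 3 of 20 target genes were called higher and 10 lower in siCtrl cells, beside 22.7% and 20.4% of all genes. In siPRMT1 cells 1 was called higher and 13 lower of 21, beside 19.0% and 17.4%, and the log2 change of Wisp2, a secreted matrix protein gene, was -2.74 and -2.81. Between the siRNAs the called genes of the list went in both directions at both days. The median log2 fold change of the list genes tested was 0.13 at day 1 and 0.14 at day 3. That of all genes tested was 0.01 at both days. These genes answer to other pathways too, and what moved them was not tested.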

How the data were processed

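The authors trimmed reads with cutadapt 1.11 and aligned them with HISAT2 2.1.0, and the submitters' processing notes also name RSEM 1.2.6 and the build mm10. The deposited counts are whole reads per gene without normalization, and the counting tool and its strand setting are not given in the sources used here. The deposited FPKM follow from the authors' counts: values recomputed from count, gene length and library total differed by at most 0.005. Counts were tested with edgeR 4.0.16 in R 4.3.3 (filterByExpr, TMM, quasi-likelihood test, Benjamini-Hochberg adjustment over all genes tested), each pair of groups on its own 6 libraries and the interaction on all 12. Standard errors were taken from the fold change and the F statistic. The thresholds of 0.05 and 0.5 are those of the study's methods. Alternatives were DESeq2 1.42.0, RLE normalization, other filters, 1 model for all libraries, limma 3.58.1 with library weights or on log2(FPKM + 1) and log2(FPKM + 0.1), the replicate number as a block, and each library left out. The tests were tried on simulated data. Members given in full were those called in at least 1 comparison plus Ctnnb1, Axin1, Axin2 and Smurf2, and of each other list at most the 2 called genes with the smallest p per comparison were named, apart from the remaining called target genes of the siRNA comparisons, Sfrp5 and the members passing the adjusted p alone, which were added after their values were seen. The members and lists were chosen with earlier results of these data known.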

Additional observations from a re-analysis of the deposited data

Results flagged for a closer look

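The knockdown effect differed between the days, by the interaction term of edgeR over all 12 libraries, for 5 members. The term, day 3 minus day 1 on the log2 scale, was 0.58 for Wls (standard error 0.119, adjusted p = 0.0060, edgeR) and 0.42 for Ctnnb1 (0.0866, 0.0062). It was 1.07 for Sfrp2 (standard error 0.229, adjusted p = 0.0076, edgeR), 0.43 for Fzd1 (0.0971, 0.0097) and 0.43 for Fzd4 (0.111, 0.021). The terms of Wls and Sfrp2 were large enough for a call. All 5 genes had a log2 fold change between the siRNAs below 0 at day 1 and above 0 at day 3. With all libraries, none of the 5 passed the adjusted p at day 1, and Fzd4 did not at day 3. Without siCtrl day 1 replicate 3, the day 1 value was -0.008 for Fzd1 and -0.15 for Sfrp2, and neither passed. The values of Wls (-0.21, adjusted p = 0.017, edgeR), Ctnnb1 (-0.18, 0.015) and Fzd4 (-0.31, 0.0070) then passed the adjusted p alone. Fzd4 was at 9.35, 8.92 and 8.87 FPKM in siCtrl and 7.67, 7.97 and 7.38 FPKM in siPRMT1 cells at day 1, where the groups did not overlap, and at 10.02, 9.17 and 8.43 FPKM in siCtrl and 10.3, 9.84 and 10.01 FPKM in siPRMT1 cells at day 3, where they did. The preadipocyte markers summed to 988 to 1048 FPKM in siPRMT1 against 1040.0 to 1179 FPKM in siCtrl libraries at day 1, and to 557 to 648 against 459 to 502 FPKM at day 3, and their part in these differences was not tested.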

How the results depend on the processing

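Of 29 calls of a member in a comparison, 18 were kept under every alternative in which the gene was tested, 11 lost the call under at least 1 and 0 changed direction. Tcf7 over the days in siCtrl cells is among those kept, but a rise was built into its test by the filter, and it was tested in 14 alternatives, against 17 for Lef1. The 29 also include the calls over the days of Tcf7 in siPRMT1 cells and of Dkk3 in both groups, which were built in too. Genes called at day 1 between the siRNAs numbered 487, and 1040 with no threshold on the fold change, 973 with limma voom and library weights, 246 on log2(FPKM + 1), 153 with no filter on low FPKM, and 123 to 873 with each library left out, most without siCtrl day 1 replicate 3. The member count there went from 0 to between 0 and 1. At day 3, 933 genes became 2313, 388, 569 on log2(FPKM + 0.1) and 342, and the 3 members called became 8 with no threshold, and 1 on log2(FPKM + 1) with or without the filter. Over the days, 5969 genes in siCtrl became 3964 on log2(FPKM + 1), and 5186 in siPRMT1 cells became 9014 with no threshold and 3144 and 3432 on log2(FPKM + 1) with and without the filter, with 20 members in place of 11 with no threshold. The interaction went from 1204 genes to 1848 with library weights, 706 on FPKM with no filter and 813 to 1907 with each library left out, and from 2 members to 5 with no threshold and 1 on FPKM with no filter. The causes were not tested, apart from the construction of fits that drop the threshold or shrink low values by a pseudocount of 1. Values near 0 changed sign: Smurf1 at day 1 was 0.047 with library weights, 0.020, 0.021 and 0.020 in the 3 fits on FPKM and, over the libraries left out, -0.088 to 0.055; Axin1 at day 3 ran from -0.083 to 0.00051 with each library left out; and Smurf2 at day 3 was 0.00070 with no filter and -0.073 to 0.013 with each library left out. Replicate numbers are shared across groups, but same-numbered libraries did not deviate together: the correlation of their deviations ran from -0.178 to 0.232, and 1 to 3 of 6 libraries per comparison correlated best with their own number. With the replicate block the genes called were 536, 974, 5929, 5193 and 1277, and the members called 0, 3, 14, 11 and 2, in the order above. Depth limits Axin2, Sfrp1, Dkk2, Wnt5b and Wnt10b, whose counts were too few to test.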
